A study of Homo sapiens with 6 samples.

Results

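The 39 genes described here carry out the NRF2-linked antioxidant programme of the cell: 2 regulators, and genes for glutathione, thioredoxin, NADPH supply, iron and haem, detoxification, conjugation and export. They were taken by gene name from the table of all 58735 genes. All 39 names were found, and 37 had a mean of at least 1 FPKM (fragments per kilobase of gene length per unit of sequencing depth) over the 6 libraries and were tested. The libraries came from SK-MES-1, an established human lung squamous cell carcinoma line, with transient knockdown of KRT6A, a keratin of squamous epithelium, or control treatment. The labels name 3 groups of 2 libraries: NC, the control, and si1 and si2, the 2 knockdown groups. All groups share the same cell line, so each value describes 1 line. The reagents' sequences, the dose and the time after transfection are not given in the sources used here. Nothing in the labels says that the libraries of a group came from separate cultures, so the p-values may measure technical spread only.

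NRF2, the product of NFE2L2, is a transcription factor that KEAP1 binds and presents for degradation. Oxidants and electrophiles loosen this hold, and NRF2 then pairs with small MAF proteins at antioxidant response elements in the promoters and enhancers of its target genes. Those genes supply cystine and glutathione, recycle oxidised thioredoxin and peroxiredoxins, make NADPH as the reducing power for both systems, store iron, and detoxify and export reactive compounds. In lung squamous cell carcinoma, NFE2L2 and KEAP1 are recurrently mutated.

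The core of the antioxidant response element, TGACNNNGC read on either strand, was searched in windows from 250 bases before to 50 bases after each start site in the RefSeq promoter table (GRCh38.p14). Windows were found for 28 of the 39 genes, 38 windows in all. Of these 28 genes, 12 held the motif (42.9%), against 16.1% of the 27305 genes in the table. By window the shares were 34.2% of 38 and 13.3% of 35116. The genes with a match were CBR1, EPHX1, GCLM, GPX2, GSTP1, IDH1, KEAP1, ME1, MGST1, PGD, PIR and TXNRD1. Matches before the start site in GSTP1 and GPX2, and further ones in KEAP1 and TXNRD1, are not printed. The 8 matches printed here, 1 per gene, lie before the start site of genes whose values are given in the text. They are shown so that the element can be read beside the gene's response, 5′ to 3′ on the gene's strand, with the matching bases in capitals.
ME1, chr6:83431170-83431198, minus strand: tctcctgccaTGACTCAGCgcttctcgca
EPHX1, chr1:225825266-225825294, plus strand: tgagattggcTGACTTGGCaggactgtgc
GCLM, chr1:93909446-93909474, minus strand: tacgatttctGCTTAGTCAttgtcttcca
TXNRD1, chr12:104215670-104215698, plus strand: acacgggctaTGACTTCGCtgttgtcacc
KEAP1, chr19:10502784-10502812, minus strand: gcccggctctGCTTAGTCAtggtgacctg
IDH1, chr2:208255196-208255224, minus strand: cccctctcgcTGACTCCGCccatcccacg
CBR1, chr21:36069855-36069883, plus strand: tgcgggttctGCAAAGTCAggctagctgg
PGD, chr1:10398853-10398881, plus strand: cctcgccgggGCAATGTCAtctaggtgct
Capitals starting with TGAC are matches on the gene's strand, and those starting with GC are matches on the other strand. GCLM and KEAP1 carried the same 9 bases, 34 and 31 bases before their starts. A match is a run of letters and was not tested for binding.

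ME1, which encodes the cytosolic NADP-dependent malic enzyme, had the highest log2 fold change of the 37 genes in si1, so the 250 bases before its RefSeq start are printed whole (minus strand).
ME1, chr6:83431052-83431301: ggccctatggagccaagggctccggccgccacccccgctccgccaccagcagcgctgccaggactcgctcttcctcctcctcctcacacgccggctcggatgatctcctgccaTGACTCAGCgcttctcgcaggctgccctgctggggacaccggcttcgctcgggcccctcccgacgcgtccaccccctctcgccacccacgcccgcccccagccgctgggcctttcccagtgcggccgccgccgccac
The capitals are its antioxidant response element core, which begins 137 bases before the start. The AP-1 element TGANTCA, which many response elements contain, overlapped the same bases. That motif was present in 4 of the 28 genes (14.3%), GSTP1, ME1, OSGIN1 and PIR, against 9.37% of all genes in the table. The plot of match positions shows where the cores fall.

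**Figure D1:**
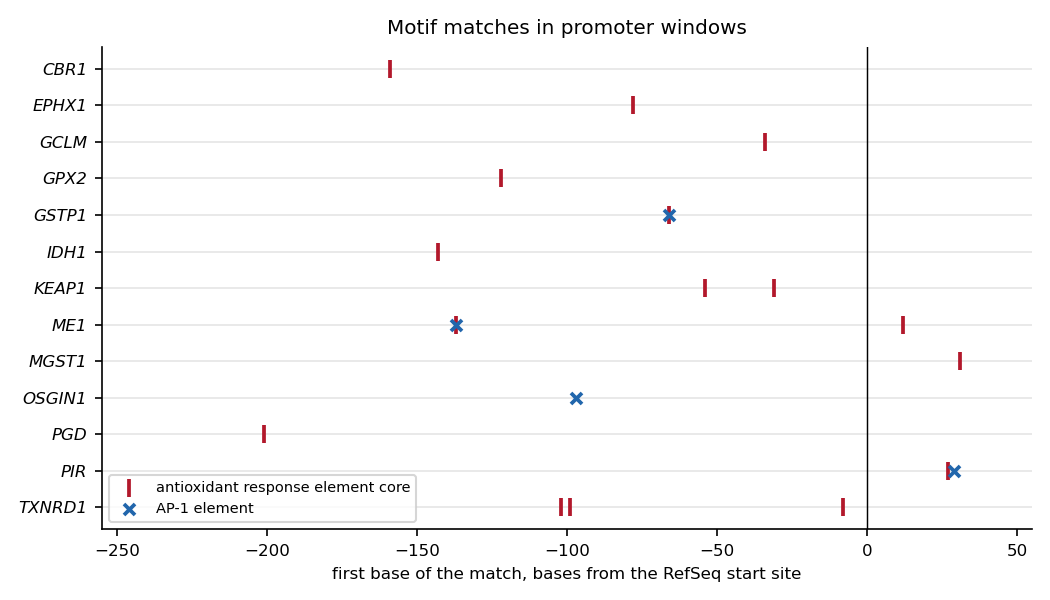
Positions of the motif matches in the promoter windows of the genes that have one, in bases from the RefSeq start site (x axis, from 250 before to 50 after); each row is a gene and each marker a match. Matches lie on both sides of the start, with ME1 at 137 bases before it and GCLM at 34 bases before it.

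The libraries held 14948607 to 17401392 reads, recovered from the deposited values. KRT6A had 0 reads in all 6 libraries, NC included. With 3 reads as the upper limit for a count of 0, its level was at most 0.0583 to 0.0678 FPKM per library, so these data could not check the knockdown, and the groups are used as labelled. Libraries of the same group correlated at 0.983 to 0.987 across genes, and libraries of different groups at 0.947 to 0.967. Of 8 squamous markers, TP63 and PKP1 were above 1 FPKM. KRT6A and DSG3 had 0 reads everywhere, KRT5, KRT6B and KRT14 had at most 1 read in a library, and SOX2 averaged under 1 FPKM, so most markers that define squamous epithelium were absent from the labelled line. Their summed level was 25.2 to 25.5 FPKM in NC, 23.5 to 24.9 in si1 and 21.6 to 23.8 in si2. This sum hides opposite changes in si2. There TP63 rose from a mean of 6.11 FPKM in NC to 11.87 (log2 fold change 0.85, adjusted p = 0.00119). PKP1 fell from 18.97 to 9.91 FPKM (log2 fold change -0.87, adjusted p = 0.000406). In si1 neither TP63 nor PKP1 was called. Of the 6 simple epithelial markers, 5 were above 1 FPKM, and their sum was 355 to 379 FPKM in NC, 370.4 to 376 in si1 and 264 to 277 in si2. These too moved both ways in si2: KRT7 and KRT19 fell, EPCAM and KRT18 rose, and KRT8 was not called. No leukocyte marker of 6 and no endothelial marker of 4 reached 1 FPKM, and CD3E had 0 reads. Of the 6 fibroblast markers, 2 were above 1 FPKM, with sums of 17.1 to 17.5, 20 to 24.99 and 22.9 to 23.4 FPKM in NC, si1 and si2. Of 4 mesothelial markers, CALB2 alone was above 1 FPKM, WT1 had 0 reads, and the sums were 16.1 to 17.1, 10.9 to 11.4 and 35.7 to 36.7 FPKM. The part of the epithelial, fibroblast and mesothelial differences in the results that follow was not tested.

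Iron storage stood at the top of the gene set. FTL, the ferritin light chain, had 5470 ± 43.6 FPKM in NC (mean ± SD, n = 2), and FTH1, the heavy chain, 731 ± 17.3. TXN (365 ± 2.89), NQO1 (364 ± 4.93), PRDX1, GSTP1 and PGD followed, and neighbours in this order such as TXN and NQO1 lay within their spread. SRXN1 was the lowest tested gene at 4.57 FPKM in NC. ABCC2, an export pump, was at 0.228 to 0.304 FPKM and GPX2, a glutathione peroxidase of the gut epithelium, at 0.0380 to 0.177 FPKM with 1 to 4 reads, and neither was tested. Together the 39 genes took 1.61% and 1.63% of the reads in the NC libraries, 2.03% and 2.14% in si1, and 1.83% and 1.84% in si2. FTL alone took 0.486% and 0.482%, 0.665% and 0.717%, and 0.563% and 0.545% of them. In bulk RNA, less RNA per cell and fewer cells of a type cannot be told apart.

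**Figure D2:**
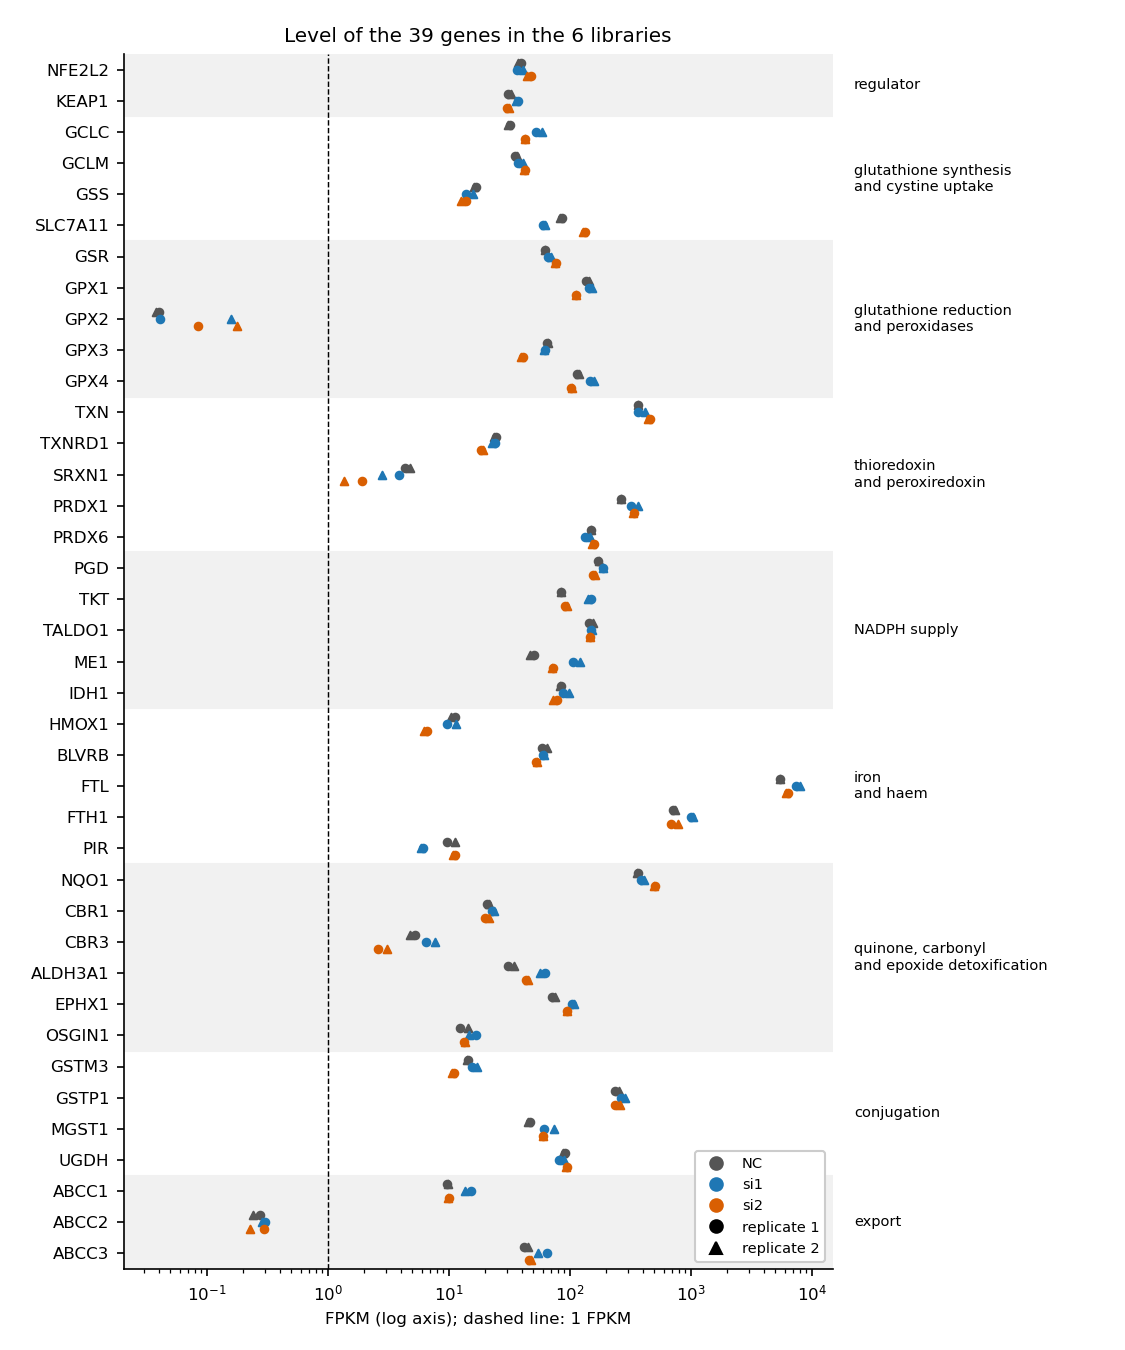
FPKM of the 39 genes in each of the 6 libraries on a log axis, grouped by role; each point is a library and the colours are the groups. The genes span from FTL, at 5440 FPKM and above, to GPX2 under 1 FPKM, and most points of a gene lie close together.

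In si1, 13 of the 37 tested genes rose against NC (35.1%, beside 9.47% of all 12319 genes tested) and 2 fell (5.41%, beside 12.9%). In si2, 12 rose (32.4%, beside 13.6%) and 10 fell (27%, beside 15.4%). For the mean of both knockdown groups, 13 rose (35.1%, beside 8.73%) and 4 fell (10.8%, beside 11.8%, a share near that of all genes). Directly compared, si2 was lower than si1 for 20 genes (54.1%, beside 18.6%) and higher for 5 (13.5%, beside 19.9%). The median log2 fold changes of the 37 genes were 0.13 in si1, 0.02 in si2 and 0.09 in their mean, and -0.25 for si2 against si1. Over all genes tested the 4 medians lay between -0.01 and 0.011. The comparisons of si1 and of si2 with NC share the NC libraries.

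**Figure D3:**
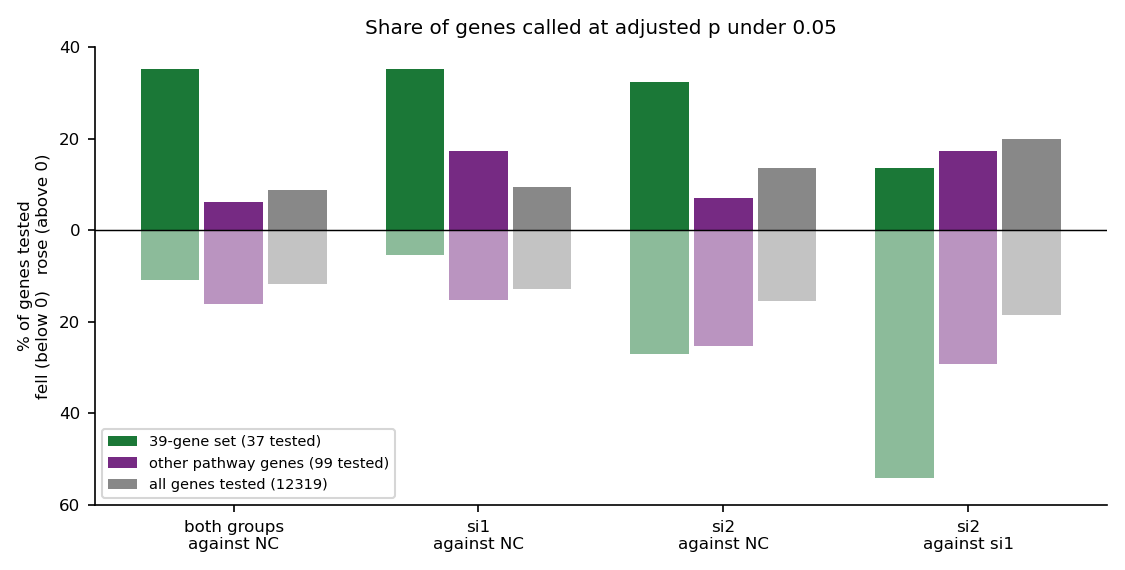
Share of genes that rose or fell (percent, y axis, falls drawn below 0) in each contrast, for the 37 tested genes of the NRF2 set, the 99 tested other genes of the same pathways and all 12319 genes tested. In si2 against si1 the share that fell is 54.1% in the NRF2 set, 29.3% in the other pathway genes and 18.6% in all genes.

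Neither regulator passed the test against NC in either knockdown group in the main fit. NFE2L2 (ENSG00000116044, chr2:177227595-177392697), which encodes NRF2, had 39.4 and 37.2 FPKM in NC, 36.4 and 41.1 in si1, and 47.9 and 44.2 in si2. The si2 libraries were above both NC libraries, while si1 overlapped them. Its log2 fold change was 0.01 (adjusted p = 0.923) in si1 and 0.26 (adjusted p = 0.0511) in si2, so neither passed the threshold. The si2 result depends on the settings: it was called in 7 of 15 alternatives, such as voom (0.27, adjusted p = 0.00715) and the 5 FPKM filter (0.26, adjusted p = 0.028), and had adjusted p up to 0.244 in the others. KEAP1 (ENSG00000079999, chr19:10486120-10503741), the adaptor that hands NRF2 to the ubiquitin ligase, had 30.7 and 32.9 FPKM in NC, 37.6 and 35.6 in si1, and 29.99 and 31.4 in si2. Against NC it was not called in si1 (0.20, adjusted p = 0.0813) or si2 (-0.05, adjusted p = 0.619). Between the knockdown groups NFE2L2 rose by 0.24 in si2 (adjusted p = 0.0498) and KEAP1 fell by 0.25 (adjusted p = 0.0265), both on the log2 scale. The ratio of NFE2L2 to KEAP1 FPKM was 1.28 and 1.13 in NC, 0.968 and 1.15 in si1, and 1.60 and 1.41 in si2. The NFE2L2 difference lost its call in 11 of 15 alternatives. Among them were pseudocount 0.1, no filter on low values, the replicate block, median-of-ratios scaling, no variance trend and only the groups compared. Its call was also lost when any 1 library other than si1 replicate 2 was left out. The KEAP1 difference lost its call without si1 replicate 1, si2 replicate 1 or si2 replicate 2. It was lost as well without the filter on low values and without the variance trend. AGPS overlaps NFE2L2 on the opposite strand with 88.7% as many reads, and whether the counting used strand is not given in the sources used here.

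Of the 4 genes of glutathione synthesis and cystine uptake, 1 rose and 1 fell in si1, while 3 rose and 1 fell in si2. Beside the counts by role, here and below, 9.47% of all genes rose and 12.9% fell in si1. In si2, 13.6% of all genes rose and 15.4% fell. GCLC (ENSG00000001084, chr6:53497341-53616970) encodes the catalytic subunit of glutamate-cysteine ligase, the rate-limiting enzyme of glutathione synthesis. It had 31.8 and 30.8 FPKM in NC, 52.6 and 58.8 in si1, and 42.5 and 42.9 in si2. All 4 knockdown libraries were above both NC libraries, and those of si1 were the highest. GCLC rose 1.78-fold in si1 (log2 fold change 0.81, SE 0.0703, adjusted p = 0.000557) and 1.36-fold in si2 (log2 fold change 0.44, SE 0.0703, adjusted p = 0.0052). GCLM (chr1:93885205-93909456), the modifier subunit, had 35.04 and 36.3 FPKM in NC, 37.2 and 41.4 in si1, and 42.9 and 42.1 in si2. It rose in si2 (0.25, adjusted p = 0.0383) and was not called in si1 (0.13, adjusted p = 0.222). The FPKM ratio of the catalytic to the modifier subunit was 0.909 and 0.849 in NC, 1.42 in both si1 libraries, and 0.992 and 1.02 in si2. GSS (chr20:34928433-34956027), glutathione synthetase, had 16.7 and 16.1 FPKM in NC, 13.9 and 15.9 in si1, and 13.7 and 12.5 in si2. It fell in si2 (-0.30, adjusted p = 0.0422), with both si2 libraries below the lowest NC library, and was at -0.13 (adjusted p = 0.326) in si1.

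SLC7A11 (ENSG00000151012, chr4:138164097-138242349) is the cystine-glutamate antiporter that brings in cystine for glutathione. Its levels were 86.6 and 82.9 FPKM in NC, 60.1 and 61.8 in si1, and 133 and 129.7 in si2, from 9479 to 20292 reads per library. Both si1 libraries were below NC and both si2 libraries above it, with no overlap between any of the 3 groups. SLC7A11 fell to 0.720 of the NC mean in si1 (log2 fold change -0.47, SE 0.0549, adjusted p = 0.00169) and rose to 1.55 times it in si2 (log2 fold change 0.63, SE 0.0549, adjusted p = 0.000517). The direct difference of si2 from si1 was the largest increase among the 37 genes (log2 fold change 1.10, SE 0.0549, adjusted p = 4.36e-05). SLC3A2, the partner chain of the antiporter, is in the list of other glutathione genes and is named here after its values were seen. It had 76.1 and 76.3 FPKM in NC, 55.6 and 53.04 in si1, and 90.2 and 96.1 in si2, and fell in si1 (-0.48, adjusted p = 0.002) and rose in si2 (0.29, adjusted p = 0.0132). The si2 calls of GCLM and GSS were lost when any 1 of the NC and si2 libraries was left out (log2 fold changes 0.22 to 0.271 and -0.359 to -0.236). Both calls were also lost without the filter on low values, with the replicate block and without the variance trend. GCLC and SLC7A11 kept their calls in both groups under every alternative run for si1 and for si2 against NC.

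Of the 4 tested genes of glutathione reduction and peroxide removal, 1 rose in si1, and in si2 the 3 peroxidases fell and the reductase rose. GPX3 (ENSG00000211445, chr5:151020438-151028993), the secreted peroxidase, had 64.6 and 66.6 FPKM in NC, 61.99 and 61.6 in si1, and 41.3 and 39.8 in si2. Both si2 libraries were well below the other 4. It fell to 0.618 of NC in si2 (log2 fold change -0.68, SE 0.0562, adjusted p = 0.000471) and was not called in si1 (-0.08, adjusted p = 0.334). GPX1 (chr3:49357171-49358600), the abundant cytosolic peroxidase, had 136 and 145 FPKM in NC, 145 and 151 in si1, and 113 and 113 in si2. It fell in si2 (-0.31, adjusted p = 0.00766), with 0.08 (adjusted p = 0.35) in si1. GPX4 (ENSG00000167468, chr19:1103926-1106791) reduces lipid peroxides in membranes and is the enzyme that guards against ferroptosis. It had 116 and 119 FPKM in NC, 147 and 157 in si1, and 101 and 104 in si2, and the 3 groups did not overlap. GPX4 rose in si1 (log2 fold change 0.38, SE 0.0567, adjusted p = 0.00453) and fell in si2 (log2 fold change -0.19, SE 0.0567, adjusted p = 0.0471). GSR (chr8:30678061-30727999), the reductase that restores glutathione with NADPH, had 61.8 and 62.1 FPKM in NC, 66.1 and 69.6 in si1, and 77.1 and 74.9 in si2 and rose in si2 (0.29, adjusted p = 0.0103) but was not called in si1 (0.13, adjusted p = 0.15).

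Against si1, GPX1, GPX3 and GPX4 were lower in si2, with log2 differences of -0.39, -0.60 and -0.56 (adjusted p = 0.00199, 0.000387 and 0.000501). These 3 differences and the si1 call of GPX4 held under every alternative run. The si2 call of GPX4 against NC was lost when any 1 of the NC and si2 libraries was left out (log2 fold changes -0.207 to -0.165). That of GSR was lost in the same 4 fits (0.27 to 0.312), and that of GPX1 without NC replicate 2 or either si2 library (-0.313 to -0.267). The si2 call of GPX4 was lost as well without the filter on low values, with the replicate block and without the variance trend.

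Of the 5 thioredoxin and peroxiredoxin genes, 1 rose in si1, and in si2 the 2 most abundant rose while the 2 recycling enzymes fell. PRDX1 (ENSG00000117450, chr1:45511036-45523047), a cytosolic peroxiredoxin that removes hydrogen peroxide, had 262 and 267 FPKM in NC, 319.6 and 369 in si1, and 339 and 336 in si2. All 4 knockdown libraries lay above both NC libraries. It rose 1.30-fold in si1 (log2 fold change 0.38, SE 0.071, adjusted p = 0.011) and 1.27-fold in si2 (log2 fold change 0.35, SE 0.071, adjusted p = 0.0123). TXN (chr9:110243811-110256640), thioredoxin itself, had 363 and 367 FPKM in NC, 363 and 419 in si1, and 459 and 445 in si2 and rose in si2 (0.31, adjusted p = 0.0184), while in si1 it was at 0.09 (adjusted p = 0.389). TXNRD1 (chr12:104215779-104350305), the NADPH-dependent reductase that restores thioredoxin, had 24.7 and 23.4 FPKM in NC, 23.9 and 22.9 in si1, and 18.5 and 19.1 in si2. It fell in si2 (-0.34, adjusted p = 0.0102) and was at -0.04 (adjusted p = 0.704) in si1.

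SRXN1 (ENSG00000271303, chr20:646615-653370), sulfiredoxin, rescues over-oxidised peroxiredoxins. It had 4.33 and 4.81 FPKM in NC, 3.85 and 2.83 in si1, and 1.92 and 1.37 in si2, from only 56 to 228 reads. The si2 libraries were the lowest and every knockdown library was below both NC libraries. SRXN1 fell in si2 (log2 fold change -1.08, SE 0.155, adjusted p = 0.00336), the largest decrease of the 37 genes there, and the si1 change of -0.37 was not called (adjusted p = 0.138). PRDX6, a peroxiredoxin with phospholipase activity, ranged from 133 to 157 FPKM and was called in no contrast. PRDX1 lost its si1 call without NC replicate 1 or 2 (log2 fold changes 0.363 and 0.388), and its si2 call when any 1 of the NC and si2 libraries was left out (0.336 to 0.361). In si2, TXN lost its call in the same 4 fits (0.285 to 0.33) and TXNRD1 without NC replicate 1 or si2 replicate 1 (-0.303 and -0.32). Without the filter on low values, both PRDX1 calls and the si2 call of TXN were lost. The si2 call of TXN was also lost without the variance trend. A pseudogene, RPL18AP3, lies within TXNRD1 on the same strand with 39.6% as many reads.

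Of the 5 NADPH supply genes, ME1 and TKT rose in si1, and ME1 rose in si2. ME1 (ENSG00000065833, chr6:83210389-83431071) had 51.1 and 46.99 FPKM in NC, 107 and 121 in si1, and 72.2 and 71.3 in si2, from 2782 to 6909 reads. The groups did not overlap: si1 was highest, si2 between, NC lowest. ME1 rose 2.32-fold in si1 (log2 fold change 1.20, SE 0.0773, adjusted p = 0.000191) and 1.46-fold in si2 (log2 fold change 0.54, SE 0.0773, adjusted p = 0.00326), and si2 was below si1 (-0.66, adjusted p = 0.000932). TKT (ENSG00000163931, chr3:53224707-53256052), transketolase of the non-oxidative pentose phosphate pathway, had 84.4 and 84.8 FPKM in NC, 150.4 and 142 in si1, and 91.4 and 94.5 in si2. It rose 1.73-fold in si1 (log2 fold change 0.78, SE 0.0559, adjusted p = 0.000299) and was not called in si2 (0.13, adjusted p = 0.116), although both si2 libraries lay above NC. Compared directly, TKT was lower in si2 than in si1 by 0.65 on the log2 scale (adjusted p = 0.000284).

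PGD (chr1:10398592-10420144), the 6-phosphogluconate dehydrogenase that yields NADPH in the oxidative pentose phosphate pathway, had 171 and 173 FPKM in NC, 189 and 187 in si1, and 154 and 162 in si2. Against NC it was at 0.13 (adjusted p = 0.111) in si1 and -0.12 (adjusted p = 0.115) in si2, and si2 was below si1 (-0.25, adjusted p = 0.00795). IDH1 (chr2:208236227-208266074), the cytosolic NADP-dependent isocitrate dehydrogenase, had 85.2 and 83.1 FPKM in NC, 87.6 and 98.9 in si1, and 79.01 and 72.9 in si2. It too was called only between the knockdown groups (-0.29, adjusted p = 0.0216). TALDO1, transaldolase, ranged from 144 to 156 FPKM and was called in no contrast. The summed FPKM of the 5 genes was 535 and 544 in NC, 683 and 702 in si1, and 545 and 546 in si2. The difference between si2 and si1 lost its call for PGD without si2 replicate 1 (adjusted p = 0.0757) and for IDH1 without si1 replicate 2 or si2 replicate 2 (0.0568 and 0.125). Calls for ME1 and TKT in si1 were kept in all alternatives run for that comparison.

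Of the 5 iron and haem genes, both ferritin chains rose and 1 gene fell in si1, while 1 rose and 2 fell in si2. FTL (ENSG00000087086, chr19:48965301-48966878) had 5501 and 5440 FPKM in NC, 7438 and 8030 in si1, and 6377 and 6143 in si2. Every knockdown library was above both NC libraries. It rose 1.41-fold in si1 (log2 fold change 0.50, SE 0.0466, adjusted p = 0.000746) and 1.14-fold in si2 (log2 fold change 0.19, SE 0.0466, adjusted p = 0.0213). FTH1 (ENSG00000167996, chr11:61959718-61967660) had 719 and 743 FPKM in NC, 1008 and 1045 in si1, and 687 and 781 in si2, and rose 1.40-fold in si1 (log2 fold change 0.49, SE 0.0657, adjusted p = 0.0028). The si2 libraries of FTH1 lay on both sides of NC (0.00, adjusted p = 0.979). The FPKM ratio of light to heavy chain was 7.65 and 7.32 in NC, 7.38 and 7.68 in si1, and 9.28 and 7.87 in si2. Ferritin has many processed copies: the 25 FTH1 pseudogenes held 1.71% of the reads of FTH1 and its copies, and the 16 FTL pseudogenes 0.0569%, so how reads were split is uncertain.

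HMOX1 (ENSG00000100292, chr22:35380361-35394214) encodes haem oxygenase, which frees iron from haem. It had 11.4 and 10.5 FPKM in NC, 9.69 and 11.5 in si1, and 6.58 and 6.22 in si2, from 226 to 468 reads. The si2 libraries were below the other 4, and si1 overlapped NC. HMOX1 fell to 0.587 of NC in si2 (log2 fold change -0.69, SE 0.0966, adjusted p = 0.0031) and was at -0.04 (adjusted p = 0.793) in si1. PIR (chrX:15384799-15493564), pirin, an iron-binding nuclear protein, had 9.67 and 11.2 FPKM in NC, 6.14 and 5.83 in si1, and 11.2 and 10.9 in si2. It fell to 0.572 of NC in si1 (log2 fold change -0.71, SE 0.0881, adjusted p = 0.00202) and was not called in si2 (0.07, adjusted p = 0.578). BLVRB (chr19:40447765-40465840), biliverdin reductase B, had 59.2 and 65.3 FPKM in NC, 60.3 and 60.97 in si1, and 53.03 and 53.8 in si2. It fell in si2 (-0.22, adjusted p = 0.0445). The si2 calls of FTL and BLVRB were lost when any 1 of the NC and si2 libraries was left out (log2 fold changes 0.167 to 0.221 and -0.286 to -0.147). Both were also lost without the filter on low values and without the variance trend, and that of BLVRB with the replicate block. Without the filter on low values the si1 calls of FTL and FTH1 were lost (adjusted p = 0.529 and 0.0723), at the same log2 fold changes. Quantile normalisation gives genes of the same rank in each library the same value, and FTL ranked 7 of 58735 genes in NC. Its si2 log2 fold change of 0 in that fit therefore cannot show whether FTL changed. The si1 change of FTL was 0.34 there (adjusted p = 0.00243) and kept its call.

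Of the 6 quinone, carbonyl and epoxide detoxification genes, 3 rose in si1. In si2, 3 were higher and 1 lower than NC (16.7% lower, near the 15.4% of all genes). NQO1 (ENSG00000181019, chr16:69706996-69726951), the quinone reductase used as a standard readout of NRF2, had 368 and 361 FPKM in NC, 384 and 409 in si1, and 504 and 500.2 in si2. The si2 libraries were the highest and the NC libraries the lowest. NQO1 rose 1.38-fold in si2 (log2 fold change 0.46, SE 0.0493, adjusted p = 0.00112), and the si1 difference was not called (0.12, adjusted p = 0.125). ALDH3A1 (chr17:19737984-19748943), an aldehyde dehydrogenase, had 30.7 and 34.4 FPKM in NC, 62.4 and 56.2 in si1, and 43.6 and 44.9 in si2. It rose 1.82-fold in si1 (log2 fold change 0.85, SE 0.0808, adjusted p = 0.000807) and 1.36-fold in si2 (log2 fold change 0.43, SE 0.0808, adjusted p = 0.00891). EPHX1 (chr1:225810092-225845563), microsomal epoxide hydrolase, had 70.9 and 75.1 FPKM in NC, 105 and 109 in si1, and 94.2 and 94.5 in si2. It rose in si1 (0.54, adjusted p = 0.00112) and in si2 (0.37, adjusted p = 0.00448), with all 4 knockdown libraries above NC. TMEM63A overlaps it with 19.3% as many reads.

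CBR3 (ENSG00000159231, chr21:36134912-36146566), a carbonyl reductase, had 5.22 and 4.82 FPKM in NC, 6.49 and 7.63 in si1, and 2.60 and 3.06 in si2, from 48 to 151 reads. The 3 groups did not overlap, with si1 highest and si2 lowest. It rose in si1 (log2 fold change 0.42, SE 0.108, adjusted p = 0.033) and fell in si2 (log2 fold change -0.66, SE 0.108, adjusted p = 0.00558), and si2 was 0.400 of si1 (log2 fold change -1.07, SE 0.108, adjusted p = 0.000501). The related CBR1 ranged from 20.1 to 23.5 FPKM and OSGIN1, an oxidative stress-induced growth inhibitor, from 12.5 to 16.6 FPKM, and neither was called. The si1 call of CBR3 was lost without NC replicate 1, NC replicate 2 or si1 replicate 2 (log2 fold changes 0.466, 0.37 and 0.315), and the si2 call of ALDH3A1 without NC replicate 1 or si2 replicate 2 (0.353 and 0.413). For CBR3 in si1 the call was also lost without the filter on low values and with voom. CBR3-AS1, an antisense gene, had 25.1% as many reads as CBR3, and SETD4 27% as many as CBR1.

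**Figure D4:**
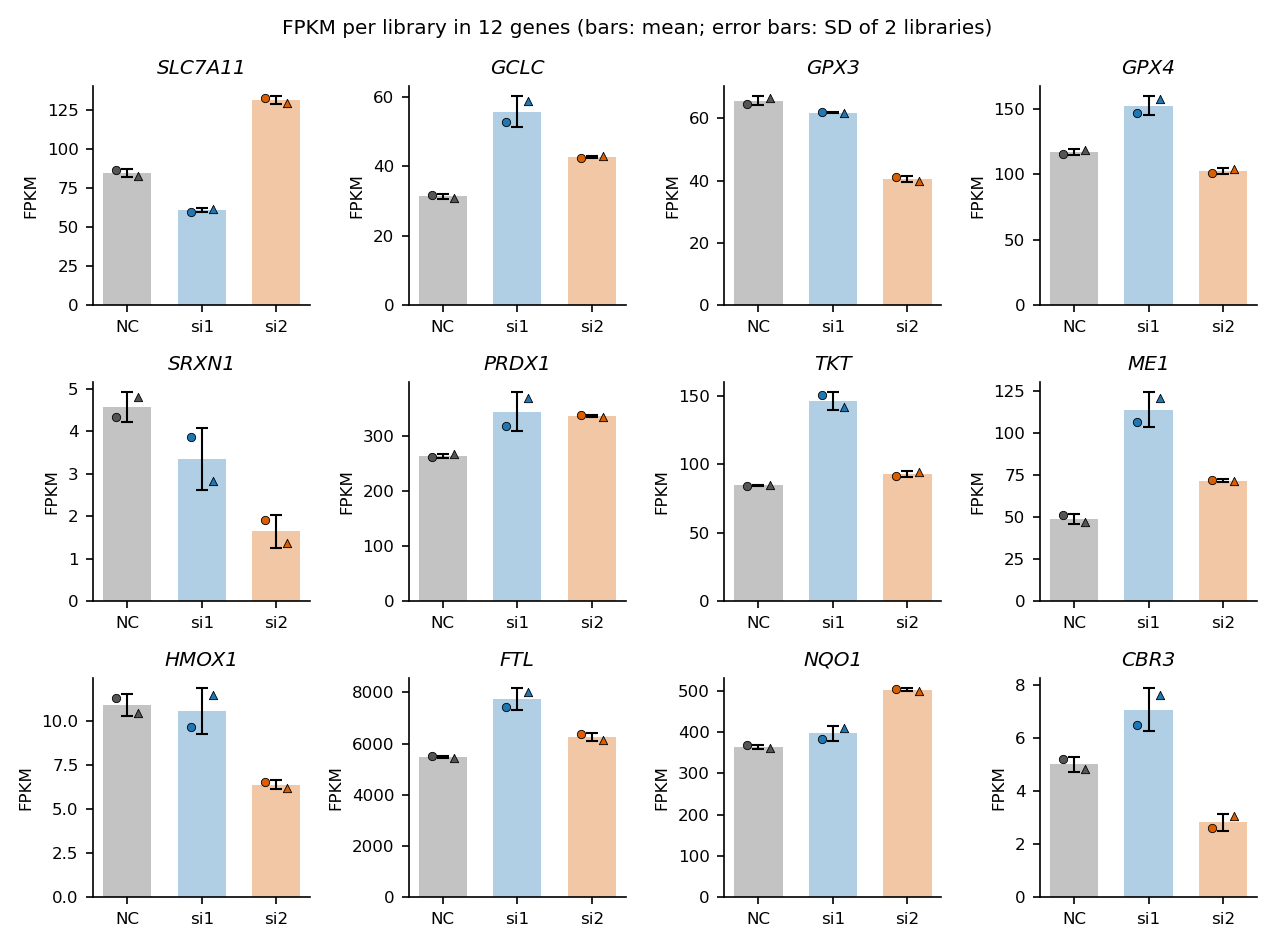
FPKM of 12 genes in each library (points) with the mean of each group (bars, starting at 0) and the SD of its 2 libraries (error bars). SLC7A11 is lowest in si1 and highest in si2, GPX4 and CBR3 are highest in si1 and lowest in si2, and ME1 and GCLC are above NC in both knockdown groups.

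Of the 4 conjugation genes, 1 rose in si1. In si2, MGST1 rose and GSTM3 fell. Both tested export genes rose in si1 and neither was called in si2. GSTP1, the most abundant glutathione transferase of the set, had 237 and 257 FPKM in NC, 267 and 288 in si1, and 238 and 259 in si2 and was called in no contrast. MGST1 (chr12:16347142-16609259), the microsomal transferase, had 47.1 and 45.2 FPKM in NC, 60.8 and 74.02 in si1, and 60.6 and 59.6 in si2. All 4 knockdown libraries were above NC, and it rose in si1 (0.53, adjusted p = 0.00836) and si2 (0.37, adjusted p = 0.0243). GSTM3 (chr1:109733932-109741038), a mu-class transferase, had 14.3 and 14.2 FPKM in NC, 15.5 and 17.2 in si1, and 10.98 and 10.6 in si2 and fell in si2 (-0.37, adjusted p = 0.0125). UGDH, which makes UDP-glucuronate for glucuronidation, ranged from 81.8 to 93.99 FPKM with no call. ABCC1 (chr16:15949577-16143074), the pump that exports glutathione conjugates, had 9.59 and 9.91 FPKM in NC, 15.2 and 13.5 in si1, and 10.1 and 9.80 in si2. It rose 1.47-fold in si1 (log2 fold change 0.51, SE 0.0789, adjusted p = 0.00487) and was at 0.02 (adjusted p = 0.848) in si2. ABCC3 (chr17:50634777-50692252), a related pump, had 41.6 and 45.3 FPKM in NC, 65.1 and 54.7 in si1, and 45.9 and 47.6 in si2, and rose in si1 (0.45, adjusted p = 0.0143) but was not called in si2 (0.11, adjusted p = 0.431). In si1, leaving out NC replicate 2 ended the MGST1 call (log2 fold change 0.501), and leaving out NC replicate 1 ended that of ABCC3 (0.391). The si2 calls of MGST1 and GSTM3 were lost when any 1 of the NC and si2 libraries was left out (0.345 to 0.402 and -0.391 to -0.347). Without the filter on low values, MGST1 lost its calls in both groups and ABCC3 its si1 call. The si2 call of MGST1 was also lost without the variance trend.

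The direct comparison of the knockdown groups uses no NC library in its difference. SLC7A11, PIR, NQO1, NFE2L2 and TXN rose in si2 against si1. Of the 20 genes that fell, CBR3 (-1.07), SRXN1 (-0.71, adjusted p = 0.0113), ME1, TKT, HMOX1 (-0.64, adjusted p = 0.00246), GPX3, GPX4 and GSTM3 (-0.55, adjusted p = 0.00171) fell by more than 0.5 on the log2 scale. FTH1 (-0.49, adjusted p = 0.00164), ABCC1 (-0.49, adjusted p = 0.00325), ALDH3A1 (-0.41, adjusted p = 0.00737), GCLC (-0.37, adjusted p = 0.00619) and FTL (-0.30, adjusted p = 0.00265) were also lower. The other 7 were GPX1, ABCC3 (-0.35, adjusted p = 0.0231), TXNRD1 (-0.30, adjusted p = 0.0114), IDH1, PGD, KEAP1 and EPHX1 (-0.18, adjusted p = 0.0465). By role, beside 18.6% of all genes, those that fell were 1 of 2 regulators, 1 of 4 glutathione synthesis and uptake genes, 3 of 4 glutathione reduction and peroxidase genes, 2 of 5 thioredoxin and peroxiredoxin genes, 4 of 5 NADPH supply genes, 3 of 5 iron and haem genes, 3 of 6 detoxification genes, 1 of 4 conjugation genes and 2 of 2 export genes tested. PIR rose by 0.78 (adjusted p = 0.000772) and NQO1 by 0.34 (adjusted p = 0.00212). Of the 25 calls, 15 were kept in all alternatives run. Beside the losses given above for NFE2L2, KEAP1, PGD and IDH1, calls were lost on leaving out libraries for TXN and EPHX1 (5 libraries each, adjusted p 0.0862 to 0.205 and 0.0787 to 0.184), ABCC3 without si1 replicate 1 or either si2 library (0.0625 to 0.109), SRXN1 without si1 replicate 1 or si2 replicate 2 (0.0589 and 0.056), and TXNRD1 without si2 replicate 1 (0.0751). For TXN the library that could be left out was si1 replicate 2, and for EPHX1 si1 replicate 1. With the processing settings counted, the TXN and EPHX1 calls were each lost in 9 of 15 alternatives. Without the filter on low values, the calls of FTL, IDH1, SRXN1 and ABCC3 were lost, that of IDH1 also without the variance trend. The replicates of si1 were less alike than those of the other groups: the median absolute log2 difference over the 37 genes was 0.123 in si1, 0.058 in NC and 0.042 in si2.

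**Figure D5:**
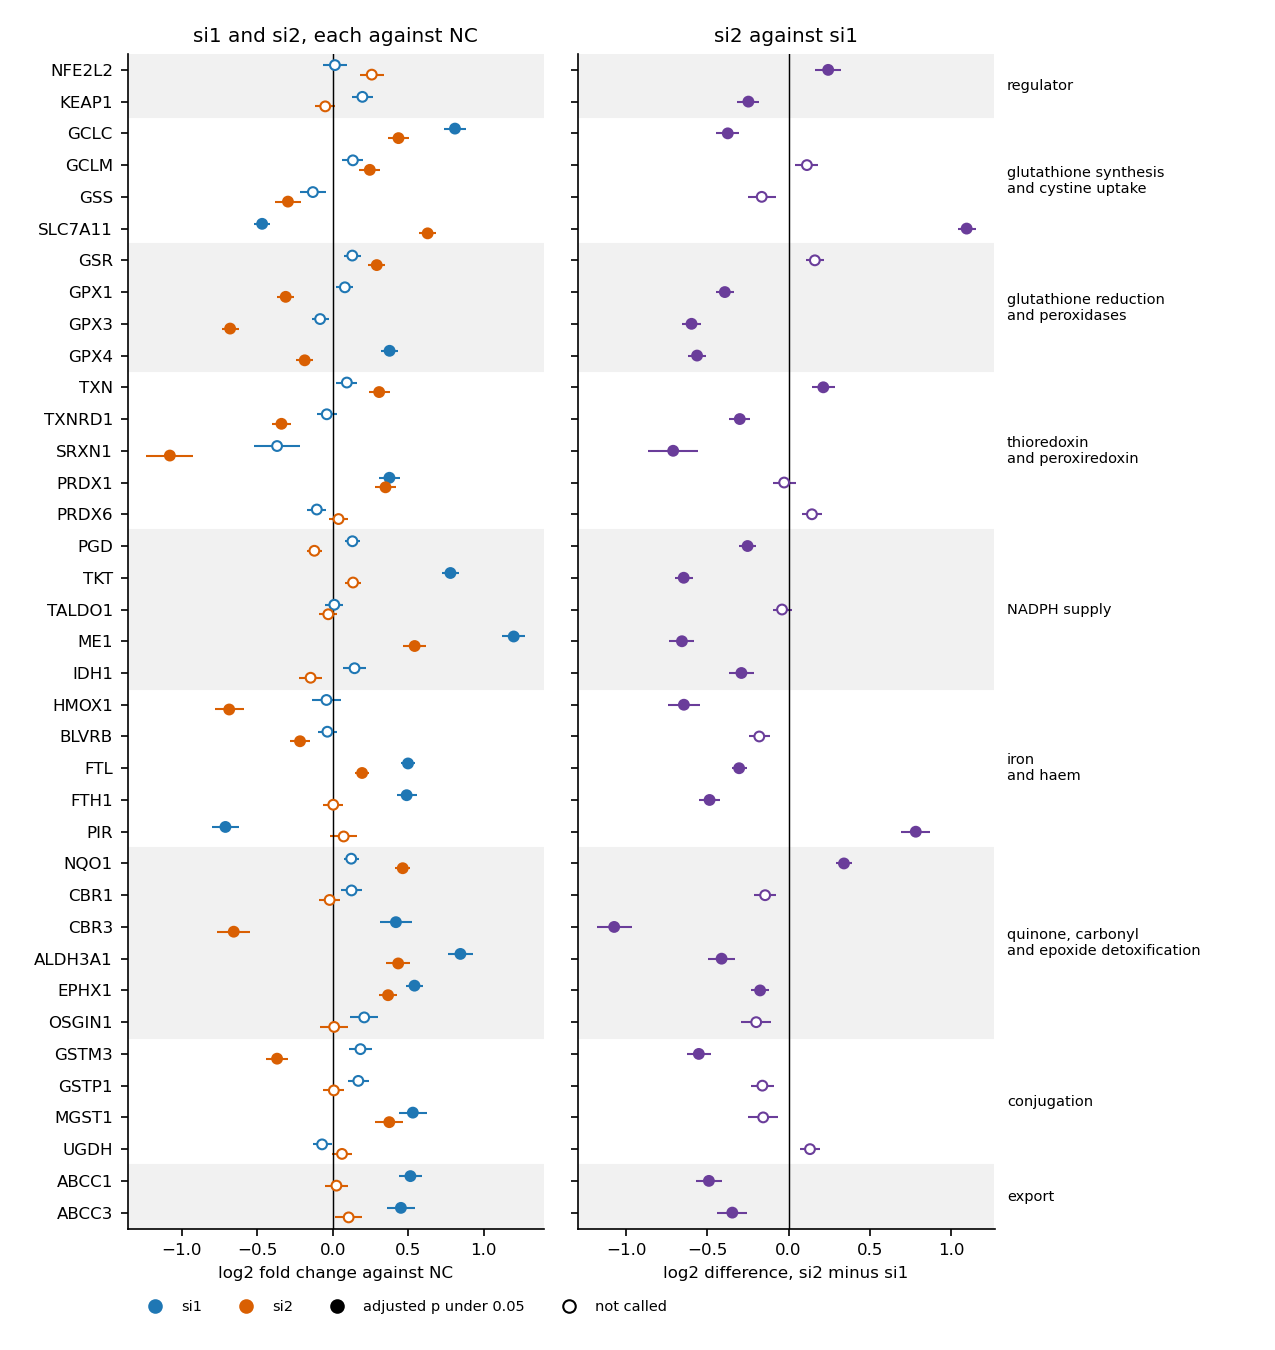
Left, log2 fold changes of the 37 tested genes in si1 and si2 against NC, on the log2(FPKM + 1) scale; right, si2 minus si1. Bars are the SE of the fit, and filled markers have an adjusted p under 0.05. ME1 is farthest to the right in si1, SRXN1 farthest to the left in si2, and SLC7A11 has its 2 markers on opposite sides of 0.

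For the mean of both knockdown groups, the 13 genes that rose included ME1 (0.87, SE 0.067, adjusted p = 0.000538), ALDH3A1 (0.64, adjusted p = 0.00167), GCLC (0.62, adjusted p = 0.00115), TKT (0.46, adjusted p = 0.00149), EPHX1 (0.45, adjusted p = 0.00161) and FTL (0.35, adjusted p = 0.00209). The other 7 were MGST1, PRDX1, NQO1, ABCC3, ABCC1, FTH1 and GSR. SRXN1 (-0.72, adjusted p = 0.0117), GPX3 (-0.38, adjusted p = 0.00282), HMOX1 (-0.36, adjusted p = 0.0243) and PIR (-0.32, adjusted p = 0.0274) fell. For FTH1, PIR, HMOX1 and ABCC1 the knockdown libraries overlapped NC, so the mean rests on 1 knockdown group. Against NC, TKT and ABCC3 were called in si1 only, and NQO1, GSR, SRXN1 and GPX3 in si2 only. All knockdown libraries of these genes lay on 1 side of NC, but their calls in the mean do not show a change in each group. When the 4 knockdown libraries were fitted as 1 group, limma called 0 of the 37 genes (8 at an unadjusted p under 0.05, lowest adjusted p 0.123 for EPHX1) and 84 of all genes, while voom on the recovered reads, with the 3 groups kept, called 21. In place of 17 genes, 7 were called without NC replicate 1 and 7 without NC replicate 2, 12 without si2 replicate 1 and 11 without si2 replicate 2.

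The other genes of these pathways, 117 listed and 99 tested, had 6 that rose in the mean of both groups (6.06%, beside 8.73% of all genes), 17 in si1 (17.2%, beside 9.47%) and 7 in si2 (7.07%, beside 13.6%). Those that fell numbered 16 (16.2%, beside 11.8%), 15 (15.2%, beside 12.9%) and 25 (25.3%, beside 15.4%). Between the knockdown groups 17 rose (17.2%, beside 19.9%) and 29 fell (29.3%, beside 18.6%). The shares that rose in the mean, fell in si1 and rose between the groups were near those of all genes. The list counts that follow are for the mean of both groups, where 8.73% of all genes rose and 11.8% fell. They do not say that each group moved. Among the 11 tested partners of NRF2 and genes of its turnover, 4 fell in the mean of both groups. NFE2L3, a relative of NRF2, had 102 and 101 FPKM in NC, 53.03 and 53.1 in si1, and 100.4 and 97.8 in si2 and fell in si1 (-0.92, adjusted p = 0.000131), with -0.03 (adjusted p = 0.688) in si2. BTRC, a ubiquitin ligase subunit that can also mark NRF2 for degradation, had 6.09 and 6.02 FPKM in NC, 4.83 and 4.28 in si1, and 3.64 and 3.53 in si2 and fell in the mean (-0.48, SE 0.075, adjusted p = 0.00586). SQSTM1, the autophagy receptor p62 that binds KEAP1, is named after its values were seen. It had 167 and 171 FPKM in NC, 199 and 190.1 in si1, and 121 and 125 in si2, rising in si1 (0.20, adjusted p = 0.0319) and falling in si2 (-0.45, adjusted p = 0.00145).

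Of 18 other glutathione genes tested, 2 fell in the mean of both groups (11.1%, near the 11.8% of all genes). CHAC1, an enzyme that breaks down glutathione, had 18.1 and 17.8 FPKM in NC, 6.12 and 7.81 in si1, and 8.89 and 11.7 in si2 and fell (-1.01, SE 0.123, adjusted p = 0.00238), and GGT7 fell by 0.25 on the log2 scale (adjusted p = 0.0479). Of 10 other glutathione transferases, 2 fell: GSTM4 with 7.95 and 7.42 FPKM in NC, 5.62 and 5.92 in si1, and 3.60 and 4.12 in si2 (-0.60, adjusted p = 0.00294) and GSTO1 (-0.43, adjusted p = 0.00554). Other thioredoxin and peroxide genes had 4 that rose (21.1%, beside 8.73%) and 2 that fell (10.5%, near the 11.8% of all genes) of 19. PRDX4, the peroxiredoxin of the endoplasmic reticulum, had 11.8 and 13.2 FPKM in NC, 25.4 and 29.4 in si1, and 21.1 and 19.7 in si2 and rose (0.87, adjusted p = 0.00102). SOD2, the mitochondrial superoxide dismutase (the better covered of 2 rows with this symbol), had 30.4 and 29.6 FPKM in NC, 67.7 and 78.4 in si1, and 34.9 and 33.8 in si2; it rose in si1 (1.25, adjusted p = 0.000181) and was not called in si2 (0.19, adjusted p = 0.119).

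Of 13 other NADPH supply genes, 3 fell in the mean of both groups, among them NADK and MTHFD2. NADK, the kinase that makes NADP from NAD, had 15.3 and 16.1 FPKM in NC, 20.6 and 21.1 in si1, and 6.43 and 6.14 in si2. It rose in si1 (0.39, adjusted p = 0.00883) and fell in si2 (-1.20, adjusted p = 0.000163), and the groups did not overlap. MTHFD2, a mitochondrial folate enzyme, had 64.6 and 61.6 FPKM in NC, 31.2 and 33.9 in si1, and 64.1 and 65.1 in si2 and fell in si1 (-0.94, adjusted p = 0.000262). Of 11 other iron and haem genes, ALAS1, the first enzyme of haem synthesis, fell (-0.30, adjusted p = 0.0321). The share of that list that fell, 9.09%, is near the 11.8% of all genes. Other detoxification and export genes had 2 that rose and 2 that fell of 11, with ALDH1A3 at 30.2 and 32.5 FPKM in NC, 13.5 and 14.8 in si1, and 18.7 and 19.9 in si2 (-0.88, adjusted p = 0.000522) and ALDH3A2 at 25.3 and 25.1 FPKM in NC, 38.1 and 40.7 in si1, and 34.1 and 31.6 in si2 (0.50, adjusted p = 0.00225).

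Genes with and without a response element core in their promoter window are set side by side here, with no test of their difference. Bases outside the windows were not searched, so a gene without a match may have an element elsewhere. In si1, 3 of the 11 tested genes with a match rose and 1 fell (median log2 fold change 0.14), beside 4 that rose of the 15 without a match (0.09), and 6 that rose and 1 that fell of the 11 without a window (0.38). Of all genes, 9.47% rose and 12.9% fell. For si2 the counts were 4 that rose and 1 that fell with a match (0.01), 4 and 6 without a match (0.01), and 4 and 3 without a window (0.04), where 13.6% of all genes rose and 15.4% fell. ME1, EPHX1 and MGST1, whose windows hold the core, rose in si1 and in si2, and GCLM rose in si2 only. TXNRD1, with 3 cores in its windows, fell in si2. PIR, which also holds the core, fell in si1 (-0.71, adjusted p = 0.00202). KEAP1, IDH1, CBR1 and PGD, whose cores are printed above, passed the test against NC in neither knockdown group, nor did GSTP1.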

How the data were processed

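RNA-seq was described for 6 libraries of SK-MES-1 cells, 2 each of NC, si1 and si2. The deposited values are FPKM, computed by the authors per gene. The submitters' processing notes name the build hg38; the aligner, counter and strand setting are not given in the sources used here. FPKM multiplied by gene length gave whole reads within 0.001 for 100% of the values, 14948607 to 17401392 reads per library. The 12319 genes whose mean reached 1 FPKM were fitted on the scale log2(FPKM + 1) with limma 3.58.1 in R 4.3.3, with trended moderated variance, 1 coefficient per group, 3 residual and 4.03 prior degrees of freedom. Fold changes on this scale understate those of low genes. P-values are two-sided, Benjamini-Hochberg adjusted over all 12319 genes of a contrast, with a threshold of 0.05, and "rose", "fell" and "called" refer to it. The script was checked on simulated data. SE is limma's standard error. Gene coordinates are those of the deposited table. Promoter windows are from RefSeq (GRCh38.p14) and motifs were matched as letters.

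The 39 genes, the lists and the tests were chosen with earlier results of these data known. Values in every library are given for genes called in any contrast, the regulators and the most abundant gene of each role, and from each list of other pathway genes the text names the 2 called genes with the largest change in the mean of both groups. Genes outside this rule are said to be named after their values were seen. Alternatives changed the pseudocount, filter, scaling, variance trend, samples fitted and replicate block, used voom on recovered reads, and left out each library.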

Additional observations from a re-analysis of the deposited data

Results flagged for a closer look

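SLC7A11, GPX4 and CBR3 passed the test against NC in opposite directions in the 2 knockdown groups, and the difference of si2 from si1 was itself past the threshold for each. The log2 difference was 1.10 for SLC7A11 (SE 0.0549, adjusted p = 4.36e-05), -0.56 for GPX4 (SE 0.0567, adjusted p = 0.000501) and -1.07 for CBR3 (SE 0.108, adjusted p = 0.000501). In each of the 3 genes the libraries of the 3 groups did not overlap. SLC7A11 rests on 9479 to 20292 reads per library, and CBR3 on 48 to 151. Only SLC7A11 kept both of its calls against NC in all alternatives. The si2 call of GPX4 was lost in 7 of 15 alternatives, among them the replicate block. For CBR3 the si1 call was lost in 5 of 14, among them voom. The difference of si2 from si1 kept its call in all alternatives for each of the 3 genes.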

How the results depend on the processing

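The number of the 37 genes called was 17 in the mean of both knockdown groups, 15 in si1, 22 in si2 and 25 between si2 and si1. Without the filter on low values these counts were 6, 9, 14 and 17. With the 4 knockdown libraries as 1 group the first was 0. Leaving out 1 library at a time gave 7 to 20, 12 to 17, 10 to 24 and 18 to 26. Under the other alternatives (pseudocount 0.1, mean of at least 5 FPKM, voom on recovered reads, median-of-ratios scaling, quantile normalisation, no variance trend, and the groups compared alone) each count stayed within 1.5 times its main value, and no called gene changed direction in any alternative. The fit with only the groups compared equals the main one for the mean of both groups and gave no further value there. Replicate numbers did not pair the libraries: the correlations of deviations for same-numbered libraries were -0.052, 0.05 and -0.058. With the replicate block the counts were 14, 15, 18 and 22. Calls kept in all alternatives numbered 0 of 17, 9 of 15, 9 of 22 and 15 of 25, and the 17 were all lost in the fit with 1 knockdown group. With voom, CBR3 lost its si1 call. SRXN1 and CBR3 fall under the 5 FPKM filter. The median log2 fold change of all genes moved to between -0.01 and 0.017 over the scalings. Depth limits GPX2 (1 to 4 reads) and ABCC2 (27 to 39 reads), and 48 to 228 reads make CBR3 and SRXN1 the least precise genes tested.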

Other observations

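Selenoproteins need a dedicated machinery to insert selenocysteine. The lists hold 9 of them, grouped here after the values were seen. Of the 8 tested, GPX1, GPX3, GPX4, TXNRD1 and SEPHS2 fell in si2, where 15.4% of all genes fell. Their log2 fold changes were -0.31, -0.68, -0.19, -0.34 and -0.33. TXNRD2 was at -0.25 (adjusted p = 0.16), TXNRD3 at 0.35 (adjusted p = 0.0586) and MSRB1 at -0.07 (adjusted p = 0.636), and GPX2, with 1 to 4 reads, was not tested. The GPX4 call was lost when any 1 of the NC and si2 libraries was left out. It was lost as well without the filter on low values, with the replicate block and without the variance trend. That of GPX1 was lost without NC replicate 2 or either si2 library, and that of TXNRD1 without NC replicate 1 or si2 replicate 1. The GPX3 call was kept in all alternatives run for si2 against NC. In si1, GPX4 (0.38, adjusted p = 0.00453) and MSRB1 (0.41, adjusted p = 0.0215) rose, and the other tested selenoproteins were not called. In the list of selenoprotein synthesis genes, 6 of 7 were tested, and in si2 1 rose (16.7%, beside 13.6% of all genes) and 2 fell (33.3%, beside 15.4%). The 3 are named after their values were seen. SEPHS1 had 19.6 and 19.7 FPKM in NC, 20.1 and 21.8 in si1, and 15.5 and 17.1 in si2 and fell in si2 by 0.26 (adjusted p = 0.0458). SEPHS2, the selenophosphate synthetase and itself a selenoprotein, had 29.6 and 28.2 FPKM in NC, 26.4 and 27.8 in si1, and 21.7 and 23.9 in si2 and fell by 0.33 (adjusted p = 0.0162). SEPSECS, which makes selenocysteinyl-tRNA, had 3.61 and 3.24 FPKM in NC, 3.19 and 3.59 in si1, and 5.46 and 5.28 in si2 and rose (0.53, adjusted p = 0.00786).

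In si1, replicate 2 was higher than replicate 1 for 26 of the 37 genes (70.3%), beside 51.7% of all genes tested. In NC this held for 22 of 37 (59.5%, beside 50.1%) and in si2 for 15 (40.5%, beside 50.2%).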
